A study of Mus musculus with 9 samples.

Results

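The NF-κB module was followed in sorted liver macrophages of mice on a normal diet, on a high-fat diet, and on a high-fat diet with diphenyleneiodonium (DPI), a compound studied as an agonist of the receptor GPR3. Its members were the rows of the raw count table that carry 10 gene symbols, taken by name from 23413 genes. They comprised 5 subunits of the transcription factor (*Nfkb1*, *Nfkb2*, *Rel*, *Rela* and *Relb*) and 5 genes that restrain or shape it (*Nfkbia*, *Nfkbie*, *Nfkbiz*, *Tnfaip3* and *Tnip1*). The latter 5 are called inhibitors below as a short name, which does not state that each of them only inhibits. The 9 RNA-seq libraries were 2 from mice on a normal diet (ND), 3 from mice on a high-fat diet (HFD) that received vehicle and 4 from mice on HFD that received DPI. All were male C57BL/6 mice with no engineered allele named in the sources, placed on their diet at 5 weeks of age and kept on it for 8 weeks. DPI at 2 mg/kg or the vehicle was injected into the peritoneum every 5 days from week 3, so both HFD groups were injected, and an injection of ND mice is not stated. The sample labels carry a different treatment text, 500 nM for 24 h on purified cells, on ND libraries as well, and groups were taken from the sample titles. The cells were sorted from the liver as F4/80+CD11b+ cells with a low Gr1 signal, each title names 1 mouse, and the labels give the molecule as polyA RNA.

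NF-κB is a family of dimers that bind κB sites in DNA. In resting macrophages IκB proteins hold the dimers in the cytoplasm, and signals from Toll-like, interleukin-1 and TNF receptors lead to phosphorylation and loss of IκB, after which the dimers enter the nucleus. Many of the genes they switch on encode their own brakes, so transcripts of IκBα, A20 and related proteins rise with NF-κB activity and then limit it. In the liver the pathway is a principal route by which macrophages produce inflammatory cytokines.

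Several of these genes are themselves textbook targets of NF-κB, and their promoters were read for the κB consensus. The motif searched has 10 bases, which are 3 G, a purine, any base, A or T, 2 pyrimidines and a pair of C, and both strands were searched. Windows of 250 bases before and 50 after an annotated start (RefSeq, build GRCm38.p6) were given for 7 of the 10 genes and not for *Nfkb1*, *Relb* and *Nfkbiz*. A match was found in 6 of the 7 genes, and *Rela* held none, against 5.14% of 27025 genes with a window and 4.51% of 32851 windows. Among other genes of the pathway, 10 of 21 textbook targets, 5 of 14 other IκB proteins and brakes and 2 of 22 upstream kinases and adaptors held a match. The stretches below carry the matches of 5 genes, written 5′ to 3′ on the strand of the gene with matching bases in capitals, and they are shown because these stretches lie before the start and outside annotated exons (GENCODE M21), as no stretch of *Nfkb2* did. For *Nfkbia* (chr12:55492648-55492897, minus strand) the 250 bases before the start are given, with the match 29 to 20 bases upstream. For *Tnfaip3* (chr10:19015411-19015447, minus), *Rel* (chr11:23771026-23771086, minus), *Tnip1* (chr11:54962962-54963023, minus) and *Nfkbie* (chr17:45555569-45555628, plus) the stretch around the match is given.
Nfkbia: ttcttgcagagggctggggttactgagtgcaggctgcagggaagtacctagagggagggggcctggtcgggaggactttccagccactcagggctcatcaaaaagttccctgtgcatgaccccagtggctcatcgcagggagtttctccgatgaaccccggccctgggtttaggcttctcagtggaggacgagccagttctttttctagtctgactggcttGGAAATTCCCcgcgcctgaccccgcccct
Tnfaip3: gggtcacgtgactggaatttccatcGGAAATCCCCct
Rel: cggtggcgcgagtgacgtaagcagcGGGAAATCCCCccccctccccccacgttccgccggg
Tnip1: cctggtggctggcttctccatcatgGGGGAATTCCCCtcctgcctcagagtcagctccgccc
Nfkbie: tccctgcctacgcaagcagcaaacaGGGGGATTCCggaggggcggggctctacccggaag
In *Rel* and *Tnip1* matches on both strands overlap and make a longer run of capitals. *Tnfaip3* held a further match 125 to 116 bases upstream, and both of its matches lie in an intron of a longer transcript of the gene in GENCODE M21. *Nfkb2* held matches in all 3 of its windows, with 1 of them shared between overlapping windows. A match describes letters in the window and does not show binding.

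**Figure D1:**
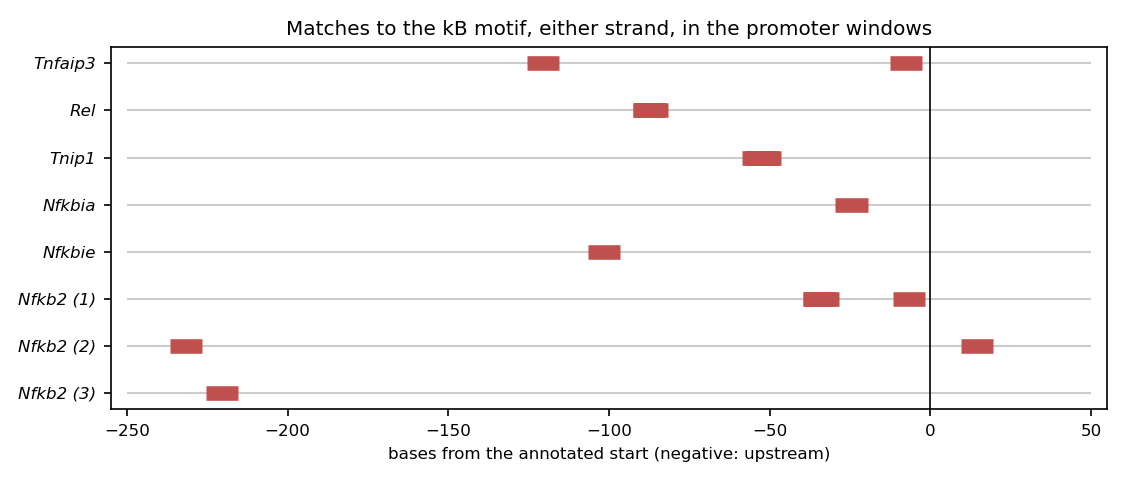
Positions of κB consensus matches (red bars, either strand) in the promoter windows of the 6 genes that held one, in bases from the annotated start, with 3 windows for Nfkb2. The match of Nfkbia lies 29 to 20 bases upstream, a match of Tnfaip3 lies 12 to 3 bases upstream, and those 236 to 216 bases upstream belong to the lower Nfkb2 windows.

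Total counts per library were 3534325 to 15585775 (median 4918629), of which *Rn45s*, a precursor of ribosomal RNA, took 27.0% to 44.5%. A floor of 3 counts, treated as the least that differs from none, corresponded to 0.184 to 1.02 CPM, the count relative to the library size scaled by its TMM factor, a limit that covers counting error only. All 10 genes passed the filter on low counts, with 46 (*Relb*) to 7451 (*Nfkbia*) counts in a library, among 11393 genes tested. The label Kupffer cell was checked against 13 markers: *Csf1r* had 1617 to 7753 counts and *Cd68* 1034 to 5490, whereas *Marco* had at most 1 count, *Timd4* and *Vsig4* were each at 0 in 5 of the 9 libraries and *Clec4f* in 3. The cells are therefore called sorted liver macrophages below, after the sort, and transcripts of other cell types were present as well. The 9 neutrophil markers summed to 1230 to 3158 CPM in ND, 2530 to 3902 CPM in HFD vehicle and 815 to 5617 CPM in HFD DPI. The 13 Kupffer cell and macrophage markers summed to 1209 to 1404, 952 to 1298 and 919 to 1728 CPM in the same order. The values of the module are those of all cells in a sort. In bulk RNA, fewer cells of a type and less RNA per cell cannot be told apart.

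*Nfkbia* (chr12:55489410-55492647, minus strand), which encodes IκBα, the classical cytoplasmic inhibitor, was by far the most abundant transcript of the module. Per kilobase of exon, its level was 185 ± 26.5 CPM per kb (SD, n = 2) in ND, 384 ± 39.8 (n = 3) in HFD vehicle and 321 ± 131 (n = 4) in HFD DPI. *Nfkbiz* (chr16:55811375-55838899, minus), which encodes the nuclear protein IκBζ, came next in each group, with 27.9 ± 8.63, 48.6 ± 15.4 and 22.7 ± 8.70 CPM per kb. *Rela* (chr19:5637483-5648130, plus), the p65 subunit with a transactivation domain, came after it with 18.4 ± 0.0133, 26.6 ± 3.86 and 18.0 ± 3.97 CPM per kb. The lowest library of *Nfkbia* lay above the highest of *Nfkbiz* in every group. *Nfkbiz* and *Rela* lay apart in ND and HFD vehicle and overlapped in HFD DPI. *Rela* lay above the next gene in every group, which was *Relb* in ND, *Tnfaip3* in HFD vehicle and *Nfkb2* in HFD DPI. The other genes lay between 2.38 and 17.2 CPM per kb, each overlapping its neighbours in the order. *Nfkb1*, the p105 precursor of p50, had the lowest mean per kb in each group. Exon length joins the exons of all annotated transcripts of a gene, 12.1 kb for *Nfkb1*, and this order depends on it. In CPM the means of *Nfkb1* were 53.3 in ND, 41.0 in HFD vehicle and 43.4 in HFD DPI. Those means lay above the means of *Nfkbie*, *Tnip1* and *Relb* in each group. Annotated genes overlap *Nfkb1* on the same strand and *Nfkb2* and *Tnip1* on the opposite one, and whether counting used strand is not given in the sources used here.

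The first comparison asked what HFD did to the module, from vehicle-treated HFD mice against ND mice. *Nfkbia* was 2.08-fold higher in HFD, 8 of the 10 genes had a positive log2 fold change, and the 4 largest positive values were those of inhibitors. *Nfkbia* had 268 and 328 CPM in the ND libraries and 568, 691 and 597 CPM in the vehicle libraries. All vehicle libraries lay above both ND libraries. The log2 fold change was 1.05 (SE 0.37, 95% interval 0.26 to 1.85), with an unadjusted p of 0.0135 and an adjusted p of 0.289 (edgeR's quasi-likelihood test, adjusted by Benjamini-Hochberg). This was the only gene of the module at the study's threshold of an unadjusted p under 0.05 with a fold of at least 2, a threshold that 11.7% of all genes tested passed. At an unadjusted p under 0.05 alone it was again 1 of 10, against 13% of all genes. With adjustment, 0 of the 10 genes passed, by edgeR and by DESeq2, against 0.0614% of all genes by edgeR and 3.5% of those given an adjusted p by DESeq2 (397 genes). Without ND library 1 the log2 fold change of *Nfkbia* was 0.93 with an unadjusted p of 0.0755, and without vehicle library 2 it was 0.97, under the fold limit. In both of these fits *Nfkbiz* passed the threshold instead, with log2 fold changes of 1.16 and 1.04. A fit without ND library 1 leaves 1 ND library, which is assumed to vary like the other groups, and likewise without ND library 2.

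The remaining inhibitors had positive differences that did not pass the test. *Nfkbiz* had 170 and 109 CPM in ND and 289, 154 and 288 CPM in HFD vehicle, so that vehicle library 2 lay inside the range of ND and the other two above it. Its log2 fold change was 0.80 (SE 0.41, unadjusted p = 0.0727). *Tnfaip3* encodes A20, a ubiquitin-editing enzyme that ends signalling from the receptors. It had 59.2 and 62.4 CPM in ND against 84.1, 106 and 79.5 CPM in HFD vehicle, and the groups did not overlap. The log2 fold change of *Tnfaip3* was 0.56 (SE 0.57). *Nfkbie*, which encodes IκBε, had 24.95 and 22.8 CPM in ND and 25.3, 47.7 and 35.4 CPM in HFD vehicle, with vehicle library 1 barely above ND. *Tnip1*, whose product ABIN-1 works with A20, ranged from 17.9 to 25.9 CPM in ND and from 23.8 to 34.8 CPM in HFD vehicle.

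Among the subunits no difference passed the test. *Rela* had 56.5 and 56.4 CPM in ND and 90.1, 68.2 and 87.0 CPM in HFD vehicle, every vehicle library above both ND libraries, with a log2 fold change of 0.53 (SE 0.34). *Rel*, the c-Rel subunit of lymphoid and myeloid cells, had 64.1 and 52.3 CPM in ND and 66.8, 69.6 and 83.0 CPM in HFD vehicle, also without overlap. *Relb*, the partner of p52 in the non-canonical pathway, had a log2 fold change of -0.71 (SE 0.55), from 47.4 and 24.5 CPM in ND and 11.3, 28.5 and 26.0 CPM in HFD vehicle. It was -0.14 without ND library 1 and -0.35 without vehicle library 1. *Nfkb1* and *Nfkb2*, the precursors of p50 and p52, had log2 fold changes of -0.38 (SE 0.41) and 0.14 (SE 0.42), and their groups overlapped. Without ND library 1 the value of *Nfkb1* was -0.74. Without ND library 2 the sign of both changed, to 0.16 and -0.21, and that of *Nfkb2* changed to -0.07 without vehicle library 2. In all, 5 of the 10 genes (*Rel*, *Rela*, *Nfkbia*, *Nfkbie* and *Tnfaip3*) lay higher in every vehicle library than in any ND library, against 15% of all genes tested, and 0 lay lower, against 12.5%. The median log2 fold change of the 10 genes was 0.51, and that of all genes was 0.03. Scaled by library size alone the median of all genes moved to -0.26, *Nfkbia* to 0.77 with an unadjusted p of 0.0817, and *Nfkb2* changed sign.

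Lists of other cell types and of handling stress were read in the same libraries. Of 12 genes induced by tissue digestion, 10 had positive log2 fold changes in HFD vehicle against ND and 4 passed an unadjusted p under 0.05 upward (*Egr1*, *Atf3*, *Dusp1* and *Nr4a1*). Their summed level was 6757 to 8467 CPM in ND, 9036 to 15725 CPM in HFD vehicle and 6169 to 11170 CPM in HFD DPI, and all 12 were detected in every library. The 5 B cell markers summed to 14.9 to 57.7 CPM in ND, 70.8 to 162 CPM in HFD vehicle and 14.6 to 348 CPM in HFD DPI, with *Ms4a1*, *Pax5* and *Cr2* at 0 in ND library 1; 5 of 5 had positive values in HFD vehicle against ND and 1 passed. The 9 neutrophil markers, of which 5 had positive values and 1 passed downward, summed to 1230 to 3158 CPM in ND, 2530 to 3902 CPM in HFD vehicle and 815 to 5617 CPM in HFD DPI. The 8 dendritic cell markers summed to 55.2 to 111, 193 to 313 and 123 to 409 CPM in the same order of groups, with 3 positive values in HFD vehicle against ND and 1 that passed upward. The 9 T and NK cell markers summed to 55.9 to 245, 277 to 408 and 261 to 499 CPM, with 8 of 9 positive and 3 passing upward in HFD vehicle against ND (*Cd3e*, *Lck* and *Il2rb*) and 4 passing upward in HFD DPI against ND. Of 9 Kupffer cell and macrophage markers tested, 8 had negative values in HFD vehicle against ND and 2 passed, *Emr1* and *C1qa*. Hepatocyte markers, 3 of 5 passing downward, summed to 111 to 182 CPM in ND and 14.9 to 42.4 CPM in HFD vehicle, and sinusoidal endothelial markers, 4 of 6 passing downward and 1 upward, to 123 to 210 and 6.69 to 14.0 CPM. The part of these lists in the differences of the module was not tested.

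**Figure D2:**
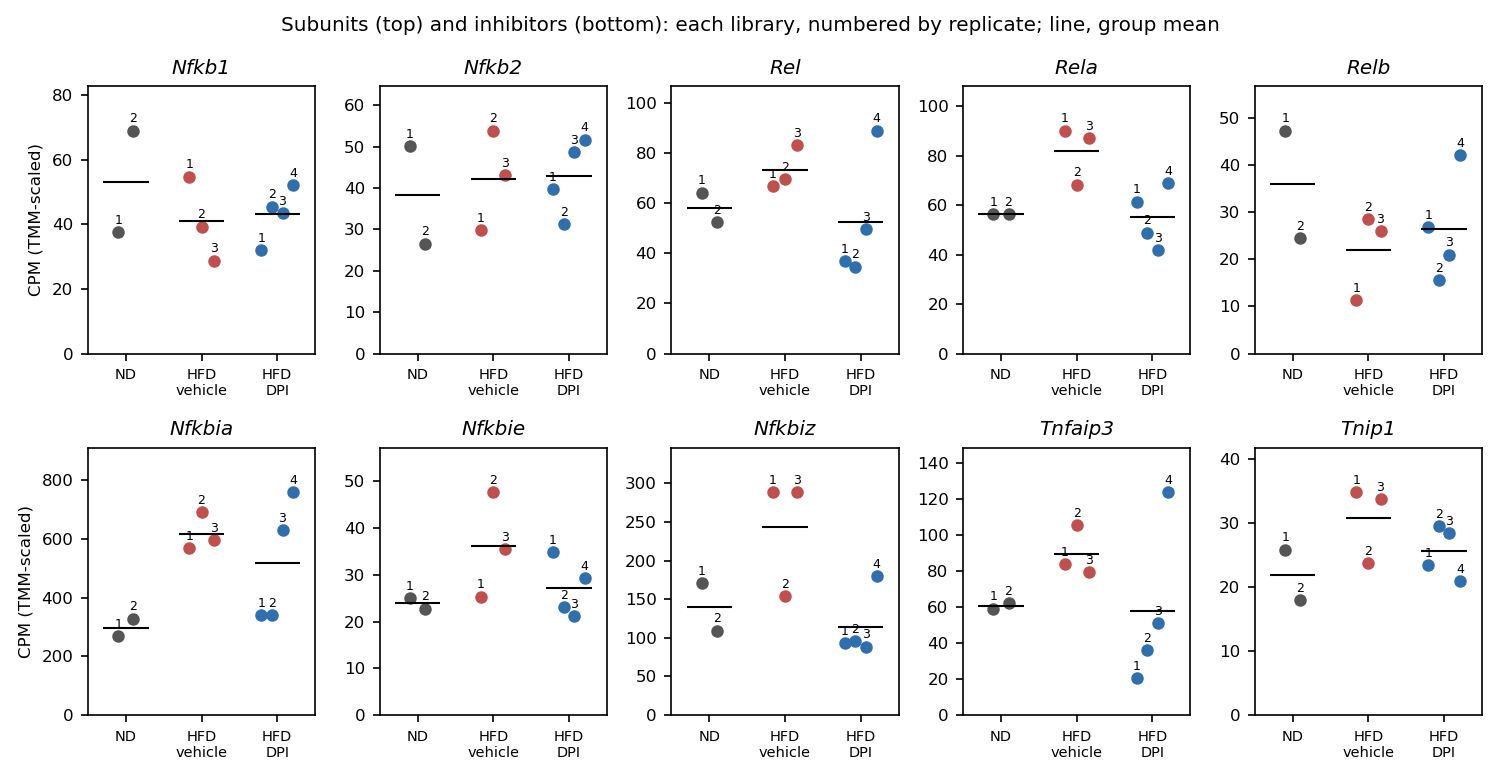
CPM of each of the 10 genes in every library, with 2 ND, 3 HFD vehicle and 4 HFD DPI libraries numbered by replicate, a line at each group mean, and a linear axis from 0 that differs between panels. Nfkbia, Rela, Rel, Nfkbie and Tnfaip3 are higher in all vehicle libraries than in both ND libraries, and HFD DPI library 4 stands highest of its group for 8 of the genes.

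The second comparison asked what DPI did within HFD. *Nfkbiz* was 2.13-fold lower in DPI-treated than in vehicle-treated HFD mice, and 7 of the 10 genes had negative log2 fold changes. In the DPI libraries *Nfkbiz* had 93.0, 95.4, 88.5 and 179 CPM, against 289, 154 and 288 CPM in the vehicle libraries. DPI library 4 lay above vehicle library 2, and the other DPI libraries lay below all vehicle libraries. The log2 fold change was -1.09 (SE 0.33, 95% interval -1.81 to -0.37), with an unadjusted p of 0.0058 and an adjusted p of 0.999 (edgeR's quasi-likelihood test, adjusted by Benjamini-Hochberg). *Nfkbiz* was the only gene of the module at the study's threshold, which 2.84% of all genes passed, and 1 of 10 at an unadjusted p under 0.05 alone, against 4.13%. With adjustment 0 of the 10 genes passed by edgeR or DESeq2, and edgeR called 0% of all genes, against 470 genes at an unadjusted p under 0.05 and 2 genes, or 0.0126%, adjusted by DESeq2. The unadjusted p of *Nfkbiz* stayed at or under 0.0288 in all 17 alternatives, but its log2 fold change came to -0.96 without vehicle library 1, -0.96 without vehicle library 3 and -0.99 without DPI library 3, which is under the fold limit. The log2 fold change was under that limit as well when libraries were scaled by library size alone. Without DPI library 4 it was -1.40, and *Tnfaip3* then passed as well, at -1.33 with an unadjusted p of 0.00291.

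*Tnfaip3* showed the widest spread of the module under DPI. Its DPI libraries had 20.6, 36.0, 51.0 and 124 CPM, a 6.03-fold range, against 79.5 to 106 CPM in HFD vehicle. DPI library 4 lay above every vehicle library and the other DPI libraries below all of them, and over all libraries the log2 fold change was -0.63 (SE 0.47, unadjusted p = 0.202). *Nfkbia* had 340, 340, 629 and 760 CPM under DPI, so that libraries 1 and 2 were near the ND level and libraries 3 and 4 at or above the vehicle level. Its log2 fold change was -0.26 (SE 0.30, 95% interval -0.90 to 0.39). In those same DPI libraries the neutrophil markers summed to 815, 864, 3698 and 5617 CPM and the B cell markers to 32.4, 14.6, 105 and 348 CPM, and their part in the split of *Nfkbia* was not tested. *Nfkbie* and *Tnip1* had log2 fold changes of -0.41 (SE 0.36) and -0.27 (SE 0.36).

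*Rela* had 61.4, 48.9, 41.7 and 68.9 CPM under DPI against 68.2 to 90.1 CPM in HFD vehicle. DPI library 4 lay just above vehicle library 2, and the log2 fold change was -0.56 (SE 0.28, 95% interval -1.16 to 0.04, unadjusted p = 0.0635). Without DPI library 4 it was -0.69 (unadjusted p = 0.033) and without vehicle library 2 -0.68 (unadjusted p = 0.0472), and DESeq2 gave an unadjusted p of 0.0448. *Rel* had 36.9, 34.6, 49.5 and 88.9 CPM, DPI library 4 again above the vehicle libraries and the others below, with a log2 fold change of -0.47 (SE 0.35, unadjusted p = 0.192). Without DPI library 4 that of *Rel* was -0.86 (unadjusted p = 0.0127). *Relb*, *Nfkb1* and *Nfkb2* had log2 fold changes of 0.27 (SE 0.46), 0.08 (SE 0.34) and 0.02 (SE 0.35), with overlapping groups, and the sign of each changed in at least 1 alternative. No gene of the module lay higher in every DPI library than in any vehicle library (3.38% of all genes did), and none lay lower (2.48% did). The median of the 10 genes was -0.34, and that of all genes was 0.04. Of the 12 digestion-induced genes 10 had negative values in this comparison and 4 passed downward (*Fosb*, *Egr1*, *Atf3* and *Nr4a1*), with the summed levels given above. Of the 9 neutrophil markers 5 had negative values and 4 positive, with a median of -0.15, and 3 passed upward (*Ngp*, *Camp* and *Ltf*). All 6 sinusoidal endothelial markers had positive values and 2 passed (*Stab2* and *Clec4g*), and their sum was 6.69 to 14.0 CPM in HFD vehicle and 4.27 to 146 CPM in HFD DPI, with *Clec4g* at 0 in vehicle libraries 1 and 2 and both *Stab2* and *Clec4g* at 0 in DPI library 3. Of the 9 Kupffer cell and macrophage markers tested 7 had positive values and 2 passed (*C1qa* and *C1qc*), and the list summed to 952 to 1298 CPM in HFD vehicle and 919 to 1728 CPM in HFD DPI. Hepatocyte markers, 4 of 5 positive with none passing, summed to 14.9 to 42.4 and 27.2 to 80.8 CPM. The part of these lists in the difference of *Nfkbiz* was not tested.

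**Figure D3:**
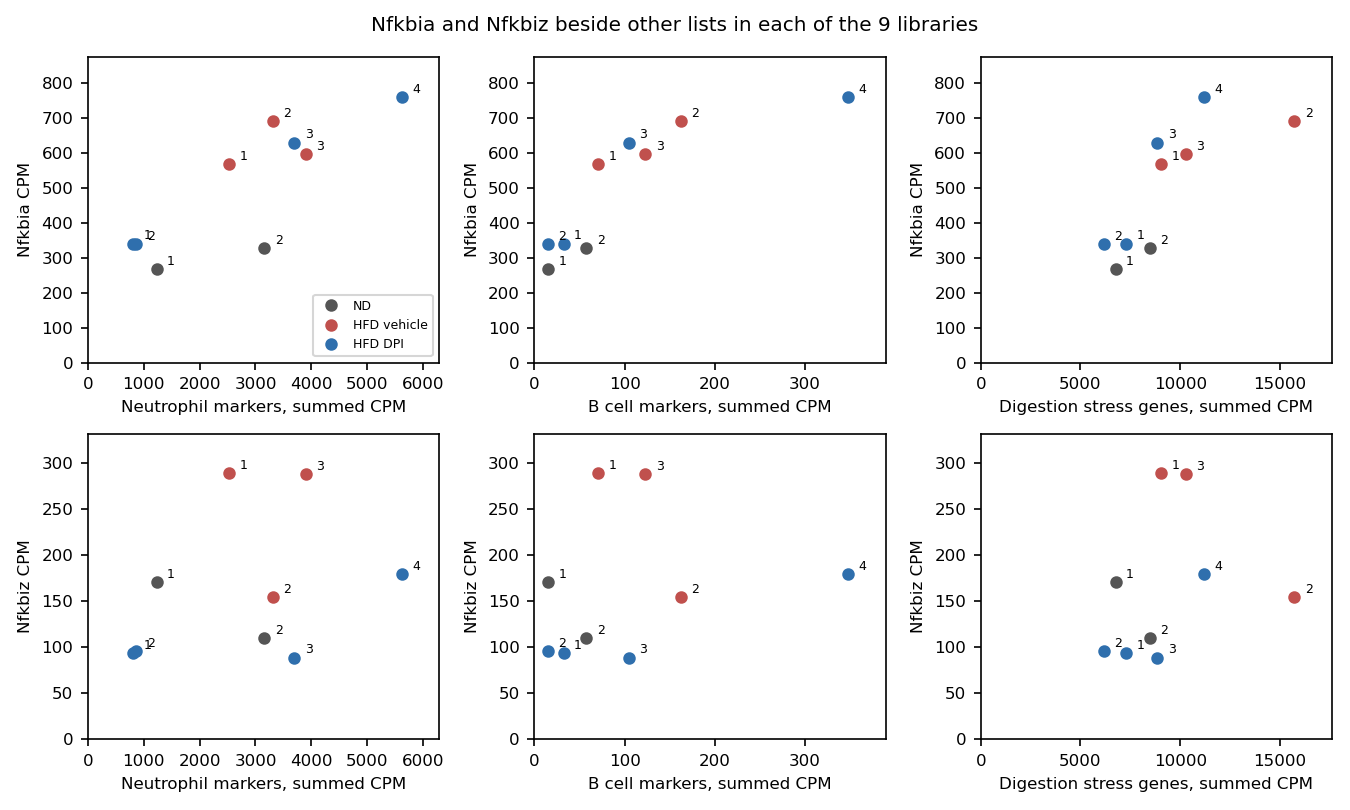
Nfkbia (top) and Nfkbiz (bottom) in CPM against the summed CPM of 9 neutrophil markers, 5 B cell markers and 12 digestion-induced genes, 1 point per library, coloured by group and numbered by replicate. Among the DPI libraries, 1 and 2 have the lowest Nfkbia levels and the lowest of all 3 sums and library 4 the highest, and Nfkbiz lies between 88.5 and 95.4 CPM in libraries 1 to 3.

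The last comparison set DPI-treated HFD mice against ND mice, and it shares its libraries with the comparisons above. *Nfkbia* was 1.74-fold higher in HFD DPI, with all 4 DPI libraries above both ND libraries, at a log2 fold change of 0.80 (SE 0.35, 95% interval 0.04 to 1.55, unadjusted p = 0.041). Its adjusted p was 0.451 (edgeR's quasi-likelihood test, adjusted by Benjamini-Hochberg), and its fold was under the study's limit. The other genes had log2 fold changes from -0.44 (*Relb*, SE 0.51) to 0.22 (*Tnip1*, SE 0.41), and the interval of each included 0. *Nfkbiz* stood at -0.29 (SE 0.38, 95% interval -1.10 to 0.52), *Rela* at -0.03 (SE 0.32) and *Tnfaip3* at -0.07 (SE 0.53). At the study's threshold 0 of the 10 genes passed, against 9.29% of all genes, and 1 of 10 at an unadjusted p under 0.05, against 10.7%; DESeq2 gave an unadjusted p of 0.039 for *Nfkbia*. With adjustment 0 passed by either tool, against 0.00878% of all genes by edgeR and 2.23% of those given an adjusted p by DESeq2 (266 genes). Higher in every DPI library than in any ND library was 1 gene of the module, against 11.7% of all genes, and lower was none, against 8.5%. For *Nfkbia* the unadjusted p rose to 0.174 without ND library 1, 0.0579 without ND library 2, 0.0955 without DPI library 3 and 0.109 without DPI library 4. It was 0.0688 in a fit of these groups only, and 0.14 with a log2 fold change of 0.61 when libraries were scaled by library size alone. Of the hepatocyte markers 0 of 5 were positive here and 2 passed downward. Of the B cell markers 5 of 5 were positive and 1 passed upward, and of the T and NK cell markers 7 of 9 and 4. Of the digestion-induced genes 9 of 12 were positive and 1 passed downward. Of the neutrophil markers 6 of 9 were positive and none passed. The part of these lists in the difference of *Nfkbia* was not tested.

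**Figure D4:**
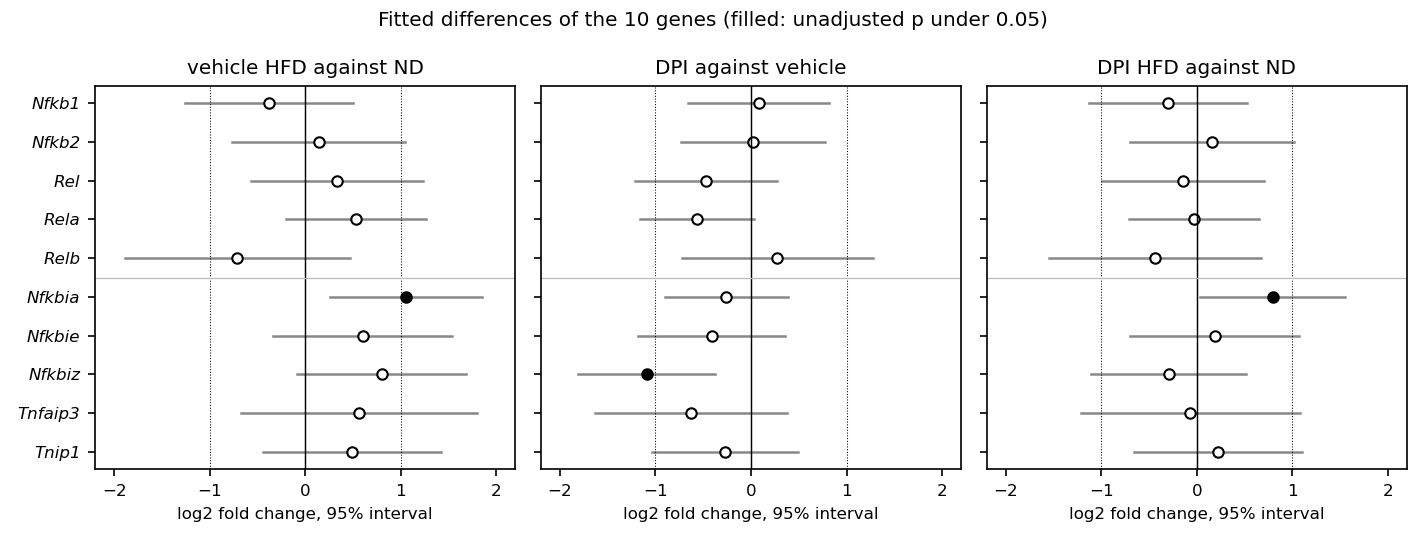
Fitted log2 fold changes with 95% intervals for the 10 genes, subunits above the grey line and inhibitors below, in the 3 comparisons; filled points have an unadjusted p under 0.05 and dotted lines mark a fold of 2. The filled points are Nfkbia in HFD vehicle against ND (1.05) and in HFD DPI against ND (0.80), and Nfkbiz in DPI against vehicle (-1.09).

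The inhibitors were also set against the subunits within each library, a difference in which the scaling factor cancels. The mean log2 CPM of the 5 inhibitors minus that of the 5 subunits was 0.49 and 0.56 in ND, 1.35, 1.09 and 1.23 in HFD vehicle and 0.56, 0.88, 0.84 and 0.78 in HFD DPI. The vehicle libraries lay above all ND and all DPI libraries, and DPI library 1 lay within the range of ND. With each of the 10 genes left out in turn, the vehicle libraries stayed above all ND libraries in 10 of 10 cases and above all DPI libraries in 10 of 10. These cases share most of their genes and all of their libraries, so they show only that no single gene set the order. How often other sets of genes part the groups in this way was not examined. Without *Nfkbia* the difference was -0.04 to 0.01 in ND, 0.42 to 0.74 in HFD vehicle and -0.10 to 0.26 in HFD DPI. The split into inhibitors and subunits follows the families of the genes and not a measured role of each. The values are a description, and no test was made of them. The ratio of *Nfkbia* to *Rela* did not share this order. It was 4.75 and 5.82 in ND, 6.30, 10.1 and 6.87 in HFD vehicle and 5.54, 6.94, 15.1 and 11.0 in HFD DPI, so that the highest ratio was in DPI library 3.

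**Figure D5:**
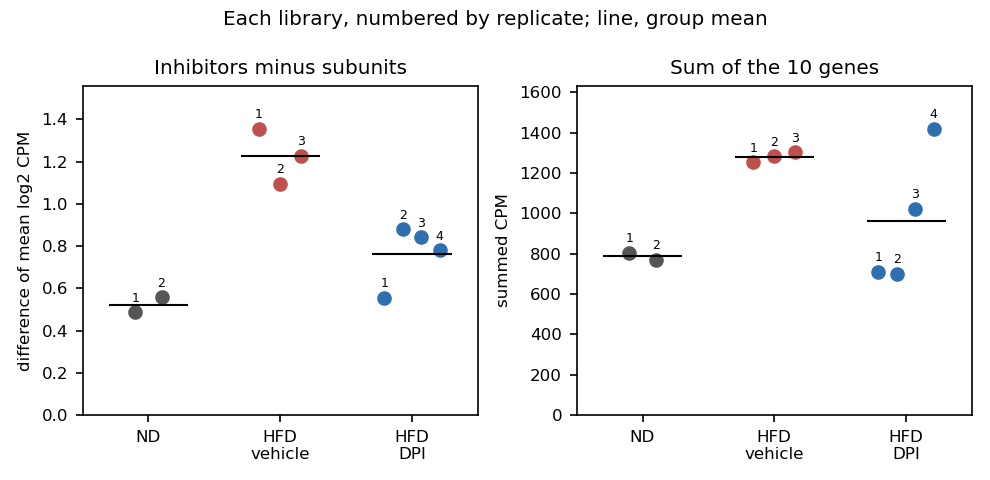
Left, mean log2 CPM of the 5 inhibitors minus that of the 5 subunits in each library; right, the summed CPM of the 10 genes; points are libraries numbered by replicate and lines are group means. On the left the vehicle libraries (1.09 to 1.35) lie above all others, and on the right the DPI libraries spread from 700 to 1418 CPM around the narrow range of the vehicle libraries (1254 to 1302 CPM).

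Around the module, 71 further genes of the pathway were examined in 3 lists: upstream kinases and adaptors (26 tested of 26), other IκB proteins and brakes (17 of 17) and textbook NF-κB targets (25 of 28). In HFD vehicle against ND, 21 of the 25 targets had positive log2 fold changes, 7 passed an unadjusted p under 0.05 upward and 1 downward, 32% of the list against 13% of all genes tested, and their median was 0.85. *Traf1*, an adaptor of TNF receptors, had 4 and 27 counts in ND and 122, 296 and 150 counts in HFD vehicle, and its log2 fold change was 3.76 (SE 0.91, unadjusted p = 0.00111). Its adjusted p was 0.14 (edgeR's quasi-likelihood test, adjusted by Benjamini-Hochberg). *Gadd45b*, a stress-response gene, went from 35.3 and 71.3 CPM in ND to 117 to 150 CPM in HFD vehicle, a log2 fold change of 1.31 (SE 0.43). The chemokine gene *Ccl4* went from 141 and 261 CPM to 442 to 511 CPM, a log2 fold change of 1.26 (SE 0.44). *Ccl3*, *Ccl5*, *Sod2* and *Cd40* were the other targets that passed upward. *Il1a*, which encodes the cytokine IL-1α, was the gene that passed downward, with 16 and 41 counts in ND and 0 in each vehicle library, at least 8.12-fold lower against a floor of 3 counts per library. The median of the targets was the same with *Il1a* set to that bound. In this comparison the digestion-induced genes (10 of 12 positive, 4 passing upward) and the T and NK cell markers (8 of 9 positive, 3 passing upward) also had mostly positive values, and their part in the values of the targets was not tested. Without ND library 2, 15 targets passed in place of 8, and of all genes 2634 passed the study's threshold in place of 1329.

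The share of passing genes in this comparison was 7.69% of the upstream list and 5.88% of the brakes, against the same 13% of all genes. Upstream, 2 of 26 passed upward, *Tbk1*, a kinase of the interferon branch (log2 fold change 1.30, SE 0.56), and *Sharpin*, a subunit of the linear ubiquitin ligase (0.94, SE 0.43), and none passed downward. The median of the upstream list was -0.04, with 11 positive values. Among the brakes 1 of 17 passed, *Trafd1*, a TRAF-type zinc finger protein that dampens Toll-like receptor signals (1.05, SE 0.38), and their median was 0.20. Leaving out single libraries gave counts of 0 to 5 in each of these lists, lowest without vehicle library 2 upstream and without ND library 1 for the brakes, and highest without ND library 2 for both.

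In DPI against vehicle, 19 of the 25 targets had negative log2 fold changes, 5 passed downward and 1 upward, 24% of the list against 4.13% of all genes tested, and the median was -0.50. The genes with the smallest p were *Sod2*, a mitochondrial superoxide dismutase (-0.79, SE 0.29), *Il1a*, *Ccl4* (-0.89, SE 0.35) and *Ptgs2*, the inducible cyclooxygenase (-0.93, SE 0.39). *Sod2* had 179 to 240 CPM in HFD vehicle and 110 to 142 CPM in HFD DPI, and the groups did not overlap. *Nlrp3* and *Cd40* were the others that passed downward. The 6 passing targets became 2 without vehicle library 1, 1 without vehicle library 3, 3 without DPI library 1 and 2 without DPI library 2. Summed over the list, the targets had 4021 to 5381 CPM in HFD vehicle and 1849, 2354, 3843 and 5017 CPM in the DPI libraries. The neutrophil marker sums had the same order over the DPI libraries (815, 864, 3698 and 5617 CPM), and B cell marker sums were 32.4, 14.6, 105 and 348 CPM. In library 4 most of the neutrophil sum came from *S100a8* and *S100a9*, while *Ngp* and *Camp* of that list were highest in library 3. The digestion-induced genes, 4 of 12 passing downward, summed to 7296, 6169, 8855 and 11170 CPM in the same libraries. The part of these lists in the values of the targets was not tested. *Il1a* was the gene that passed upward, with 9, 0, 20 and 7 counts under DPI, at least 1.91-fold higher by group means than the floor, although DPI library 2 was at 0 as the vehicle libraries were. Upstream, *Ticam1*, the TRIF adaptor, passed downward (-0.93, SE 0.37), 1 of 26 or 3.85%, and among the brakes 0 of 17 passed by edgeR at an unadjusted p under 0.05, against 2 of 26 and 0 of 17 by DESeq2. In HFD DPI against ND, *Traf1* (2.53, SE 0.84), *Gadd45b* (0.95, SE 0.41) and *Ccl5* (1.23, SE 0.56) passed upward among the targets, a count of 3 that became 7 without ND library 2 and 1 without DPI library 3. Upstream *Sharpin* passed upward (1.09, SE 0.41) and *Ticam1* (-1.17, SE 0.41) and *Chuk*, the IKKα kinase (-1.39, SE 0.64), downward, and *Trafd1* passed among the brakes (0.95, SE 0.36), where 5 passed without ND library 2. These were 12% of the targets, 11.5% of the upstream list and 5.88% of the brakes, against 10.7% of all genes. No gene of these lists passed the Benjamini-Hochberg adjustment in edgeR's quasi-likelihood test in any comparison.

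Within the DPI group, library 4 was the highest of the 4 for 8 genes of the module (the exceptions were *Nfkbie* and *Tnip1*) and the lowest for *Tnip1*. Library 2 was the lowest for 4 genes, library 3 for 3 and library 1 for 2. The members did not vary as a unit over the 9 libraries. The correlation of a gene's log2 CPM with the mean of the other 9 was 0.96 for *Rel*, 0.82 for *Tnfaip3*, 0.69 for *Nfkbiz*, 0.61 for *Rela* and 0.60 for *Nfkbia*, whereas it was 0.12 for *Relb*, 0.00 for *Tnip1* and -0.21 for *Nfkb1*. Outside the module, the tested genes whose log2 CPM was most like the mean of the 10 were *Jmjd1c* (Pearson's r = 0.94, Spearman's rho = 0.92), *Slc20a1* (0.94 and 0.93) and *Ccrl2* (0.93 and 0.87). Without the DPI libraries 1 and 2, which lay farthest from the median, r was 0.87, 0.89 and 0.85 over 7 libraries. These correlations describe 9 libraries that differ in depth and fall into 3 groups, and no p is given.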

How the data were processed

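RNA was taken from sorted liver macrophages (RNeasy micro kit, KAPA mRNA HyperPrep kit). The methods of the study name bowtie2 and RSEM, whereas the submitters' processing notes name TopHat2 and edgeR, both with build mm10, so the counter of this table is uncertain. The authors deposited raw whole-number counts per gene, without normalization, and 0 columns lacked a sample.

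The test was that of edgeR 4.0.16 (R 4.3.3) on raw counts: filterByExpr, TMM factors, 1 quasi-likelihood fit of 3 group means, and Benjamini-Hochberg adjustment over 11393 genes (biological coefficient of variation 0.65). CPM divides counts by library size and TMM factor; log2 CPM in correlations used a prior count of 2. The code of the edgeR test was also run on simulated counts with larger changes than those of the module. That run does not show how the test performs at differences of the size seen here. Exon lengths came from GENCODE M21, promoters from RefSeq, and DESeq2 1.42.0, Python 3.11.15, numpy 2.4.6, pandas 2.3.3 and matplotlib 3.10.9 were also used. *Emr1* is the row for *Adgre1*. A marker gene was left out of its list and is not reported here.

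Named were all 10 members, at most 4 genes per pathway list and comparison at an unadjusted p under 0.05, smallest p first, and the 3 genes most like the members' mean; others that passed, and marker genes, were named after their values were seen. Members and lists were chosen with earlier results of these data known. The alternatives tried were scaling by RLE or by library size, leaving out *Rn45s*, no filter on low counts, a minimum of 10 counts in every library, DESeq2, fits of 2 groups, a replicate block and each library left out. Depth was 3534325 to 15585775 counts, and intervals are 95%. Reads were amplified and carry no molecular identifier, so floors cover counting error only.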

Additional observations from a re-analysis of the deposited data

Results flagged for a closer look

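*Nfkbiz* in HFD DPI library 4, at 179 CPM, stood apart from the other DPI libraries, which had 88.5 to 95.4 CPM: its gap to the nearest of them was 0.924 of the range of the group, above Dixon's 95% critical value for 4 samples. The comparison was made at both ends for each of the 10 genes in the HFD DPI group, and groups of 2 or 3 libraries were not tested. In HFD vehicle, library 2 (154 CPM) likewise lay away from libraries 1 and 3 (289 and 288 CPM) for *Nfkbiz*. Chance flags about 1 in 20 groups. The same library had the highest neutrophil (5617 CPM) and B cell (348 CPM) sums of all libraries, and the part of these in its *Nfkbiz* level was not tested.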

How the results depend on the processing

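No difference of the 10 genes passed the adjusted p in any of the 17 alternatives (510 values). *Nfkbia* in HFD vehicle against ND and *Nfkbiz* in DPI against vehicle kept their direction in all of them, with log2 fold changes of 0.77 to 1.24 and -1.40 to -0.96. Of the 30 differences 14 changed sign in at least 1 alternative, 32 values in all, none of them past the test; where a value gives no other cause, the cause was not tested. Depth limits the rarest transcripts most: *Relb* had as few as 46 counts in a library and *Nfkbie* 68.

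Scaled by library size alone, the median of all genes was -0.26, 0.12 and -0.17 in HFD vehicle against ND, DPI against vehicle and HFD DPI against ND, the order kept here, and the share of calls that were higher was 36.6%, 66.0% and 46.7% in place of 60.3%, 52.8% and 67.2%. The genes at the study's threshold were then 0 in the first and 0 in the second comparison, and *Nfkb2* stood at -0.16 in the first and, with *Nfkbie* and *Tnip1*, at -0.044, -0.015 and -0.014 in the last. All genes past the adjustment in the first comparison numbered 1 in place of 7, the brakes 2 (first) and 2 (last), and the targets 5 (first) and 3 (second). With RLE factors the upstream list gave 1 and the brakes 2 in the first comparison. With no filter on low counts, 52 and 22 genes passed the adjustment in the first and last comparison, 602 the study's threshold in the second, and 2 brakes in the first. With at least 10 counts in every sample, fewer genes were tested, 726, 202 and 527 passed the study's threshold in place of 1329, 324 and 1058, 1 the adjustment in the first, and 2 upstream genes in the second. DESeq2 passed 397, 2 and 266 genes after adjustment in place of 7, 0 and 1, with 2 brakes in the first and 2 upstream genes in the second. Fits of the 2 groups only passed 0 after adjustment in the first and last comparison, with 1 upstream gene and 3 brakes in the first and 2 and 1 in the second, and put *Nfkb2* at -0.0067 in the second.

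No pairing by replicate number was seen: deviations of same-numbered libraries correlated at -0.02 to 0.08, and different-numbered ones at -0.08 to 0.06. Deviations were taken from group means, so those of the ND libraries mirror each other, and these values cannot show that no pairing exists. With the replicate block, 0 of the 10 genes passed the study's threshold in the first comparison (*Nfkbia* 0.93) and 2 in the second (*Nfkbiz* -1.34, *Tnfaip3* -1.40; unadjusted p under 0.05 also for *Rel* at -0.87 and *Rela* at -0.70), and 0 of all genes passed the adjustment in the first and last. The upstream list gave 1 in the first, and the brakes 1 in the second and 2 in the last. *Nfkb1*, *Nfkb2* and *Relb* stood at -0.021, -0.11 and -0.081 in the second, and *Nfkb2* at -0.022, *Nfkbia* at 0.37 (unadjusted p = 0.254) and *Tnfaip3* at -0.95 (unadjusted p = 0.043) in the last.

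With each library left out, the genes of the module at the study's threshold were 0 to 2 in DPI against vehicle. All genes at that threshold ranged from 1027 to 2634 in the first comparison, 187 to 543 in the second and 830 to 2626 in the last, highest without ND library 2 in the first and last, and those past the adjustment from 1 to 568 in the first and 1 to 572 in the last. The upstream list ranged over 0 to 5, 0 to 2 and 1 to 4, the brakes over 0 to 5, 0 to 1 and 1 to 5, and the targets over 6 to 15, 1 to 8 and 1 to 7. In the first comparison *Nfkb1* ranged from -0.74 to 0.16 and *Nfkb2* from -0.21 to 0.68. In the second, *Nfkb1* ranged from -0.13 to 0.34, *Nfkb2* from -0.19 to 0.24 and *Relb* from -0.047 to 0.51. In the last, the ranges were -0.67 to 0.24 for *Nfkb1*, -0.19 to 0.70 for *Nfkb2*, -0.53 to 0.044 for *Rel*, -0.15 to 0.082 for *Rela*, -0.81 to 0.13 for *Relb*, -0.60 to 0.071 for *Nfkbiz* and -0.77 to 0.22 for *Tnfaip3*.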
